A study of Homo sapiens with 9 samples.

Results

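The genes of the oxidative phosphorylation system were examined in the mRNA table of HCT8, an established human colorectal cancer cell line, and of its drug-resistant derivatives. Members were all genes whose symbol begins with MT-ND, MT-CO, MT-CYB or MT-ATP on the mitochondrial chromosome, or with NDUFA, NDUFB, NDUFC, NDUFS, NDUFV, UQCR, COX4 to COX8, ATP5 or SDHA to SDHD in the nucleus, and no expression value entered the rule. It found 111 of the 19976 genes of the table, 13 encoded by mitochondrial DNA and 98 by nuclear DNA. Of these, 98 are subunits of a complex and 13 are not: 8 complex I assembly factors (NDUFAF1 to NDUFAF8), the ATP synthase inhibitor ATP5IF1, COX7A2L, NDUFA4L2 and the readthrough genes ATP5MF-PTCD1 and NDUFC2-KCTD14. Among the nuclear members, 37 belong to complex I, 8 to its assembly, 4 to complex II, 9 to complex III, 19 to complex IV and 19 to ATP synthase.

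The study compared HCT8/5-Fu cells and HCT8/DDP cells with the chemosensitive parental HCT8 cells. HCT8/5-Fu cells had been selected with 5-fluorouracil (5-Fu), a pyrimidine analog, and were kept in 5 μg/ml of it, and HCT8/DDP cells had been selected with cisplatin (DDP), a platinum compound that crosslinks DNA, and were kept in 1 μg/ml. All cells grew in the same medium with fetal bovine serum, each drug is represented by 1 derived line, and each line was sequenced in 3 libraries. Nothing in the sources used here says that the 3 libraries of a line are separate cultures. The p-values therefore refer to the scatter among the sequenced libraries only, part or all of which can be technical.

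Each library held between 19753035 and 28535882 counts. The smallest were HCT8 replicate 1 and HCT8/5-Fu replicate 1 (19848095 counts), and both stood apart from the other libraries of their line. HCT8/5-Fu replicate 1 differed from its partners by a chi-square per degree of freedom of 87.9 to 92.0, and HCT8 replicate 1 by 40.8 to 47.5, against 4.95 and 4.53 between replicates 2 and 3 of these lines and 13.4 to 19.7 among the HCT8/DDP libraries. The share of counts from 71 histone genes was 0.196% in HCT8/5-Fu replicate 1, against 0.634% and 0.652% in the other libraries of that line. Counts of calls and mean mitochondrial shares are therefore given with and without them, and so are the values of some single genes. None of 8 epithelial markers was at 0 in any line, and their summed level was 13302 to 15849 CPM in HCT8/5-Fu, 9431 to 10807 CPM in HCT8/DDP and 5542 to 6701 CPM in HCT8, where CPM is counts per 1000000 counts of the library. The part of this difference between the lines in the results was not tested. PTPRC and CD3E, which define leukocytes, had no count in any library.

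Oxidative phosphorylation makes ATP at the inner mitochondrial membrane. Complexes I and II pass electrons to ubiquinone, complex III passes them through cytochrome c to complex IV, which reduces oxygen, and complexes I, III and IV pump the protons that drive ATP synthase. Complex II is wholly nuclear-encoded, while the other complexes join subunits made in the mitochondrion with subunits imported from the cytosol. Most mitochondrial mRNAs are cut from a long transcript of the heavy strand, and MT-ND6 alone among them comes from the light strand.

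The promoters of 4 nuclear members are shown because these genes were called in the same direction against HCT8 in both resistant lines: ATP5IF1 and NDUFB10 were higher, and SDHA and NDUFS4 were lower. They were chosen after their values had been seen. Each runs from 250 bases before to 50 bases after the RefSeq start of the gene on the plus strand of GRCh38.p14, at chr1:28235874-28236173, chr16:1959288-1959587, chr5:218070-218369 and chr5:53560389-53560688 in the order given. Capitals mark matches, on either strand, to the NRF1 motif or to the letters searched for ETS factors (ACCGGAAG) and YY1 (AAGATGGCG), which are known regulators of respiratory genes.
ATP5IF1: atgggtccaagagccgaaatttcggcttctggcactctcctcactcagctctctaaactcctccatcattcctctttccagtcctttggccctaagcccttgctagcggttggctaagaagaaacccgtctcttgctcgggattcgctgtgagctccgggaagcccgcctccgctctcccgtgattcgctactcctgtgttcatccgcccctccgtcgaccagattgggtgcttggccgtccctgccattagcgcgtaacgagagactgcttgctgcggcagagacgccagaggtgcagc
NDUFB10: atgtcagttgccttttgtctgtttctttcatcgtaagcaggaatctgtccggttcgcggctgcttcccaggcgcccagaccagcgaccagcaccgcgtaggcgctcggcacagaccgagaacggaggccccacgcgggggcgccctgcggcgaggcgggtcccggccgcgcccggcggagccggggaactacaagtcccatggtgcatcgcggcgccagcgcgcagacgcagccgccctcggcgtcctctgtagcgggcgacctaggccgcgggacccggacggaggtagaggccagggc
SDHA: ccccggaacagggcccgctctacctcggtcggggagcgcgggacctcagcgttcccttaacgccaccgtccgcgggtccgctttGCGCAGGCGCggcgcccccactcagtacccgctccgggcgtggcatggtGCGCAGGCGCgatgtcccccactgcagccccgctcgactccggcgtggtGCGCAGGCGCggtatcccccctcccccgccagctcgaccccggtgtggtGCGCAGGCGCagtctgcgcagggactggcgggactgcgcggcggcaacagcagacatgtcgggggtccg
NDUFS4: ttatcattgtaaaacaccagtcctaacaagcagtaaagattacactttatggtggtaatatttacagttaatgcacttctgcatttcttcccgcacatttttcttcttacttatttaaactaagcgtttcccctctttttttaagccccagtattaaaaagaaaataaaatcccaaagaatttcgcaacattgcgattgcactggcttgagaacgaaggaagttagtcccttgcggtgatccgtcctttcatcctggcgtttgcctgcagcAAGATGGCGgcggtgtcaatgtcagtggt

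In these windows SDHA held the NRF1 motif 4 times and NDUFS4 the YY1 letters 1 time, and the windows of ATP5IF1 and NDUFB10 held none of the motifs searched. A promoter was matched for 79 of the 98 nuclear members. The NRF1 motif occurred in 18 of them (22.8%), against 8.68% of the 15573 genes of the table with a promoter of the same length, the ETS letters in 5 (6.33%, against 3.18%) and the YY1 letters in 8 (10.1%, against 2.78%). Of the members lower in both resistant lines, 8 had a promoter. The NRF1 motif was in 3 of these, the ETS letters in 1 and the YY1 letters in 1. ATP5MC2, ATP5PD, NDUFA10 and NDUFAF7 held none of them. Of the members higher in both, 2 had a promoter and 0 held any of the motifs. These numbers are too small to compare the directions, and no test was made. A match is a string of letters and was not tested for binding.

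Mitochondrial transcripts made up a smaller share of the mRNA counts in HCT8/5-Fu cells than in either other line. The 13 mitochondrial genes took 2.75%, 3.61% and 3.70% of the counts in the HCT8/5-Fu libraries, 5.30%, 5.86% and 4.64% in the HCT8/DDP libraries and 4.75%, 7.02% and 6.71% in the HCT8 libraries. Every HCT8/5-Fu library lay below every library of the other lines, and the ranges of HCT8/DDP and HCT8 overlapped. The mean share was 3.35% ± 0.524 in HCT8/5-Fu, 5.27% ± 0.609 in HCT8/DDP and 6.16% ± 1.23 in HCT8 (SD, n = 3 each), and it was 3.66% in HCT8/5-Fu and 6.87% in HCT8 without replicate 1 of each.

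The 98 nuclear members together varied less. They took 0.459%, 0.506% and 0.504% of the counts in HCT8/5-Fu, 0.433%, 0.451% and 0.455% in HCT8/DDP and 0.473%, 0.532% and 0.545% in HCT8. All HCT8/DDP libraries lay below all libraries of the other lines, and the ranges of HCT8/5-Fu and HCT8 overlapped. The ratio of mitochondrial to nuclear counts was 5.997, 7.14 and 7.35 in HCT8/5-Fu, 12.2, 12.99 and 10.2 in HCT8/DDP and 10.1, 13.2 and 12.3 in HCT8. HCT8/5-Fu stood apart with the lower ratio, while the ranges of HCT8/DDP and HCT8 overlapped. These are sums over members and carry no test. In bulk RNA, fewer cells of a type and less RNA per cell cannot be told apart, nor can fewer mitochondria and fewer transcripts per mitochondrion.

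**Figure D1:**
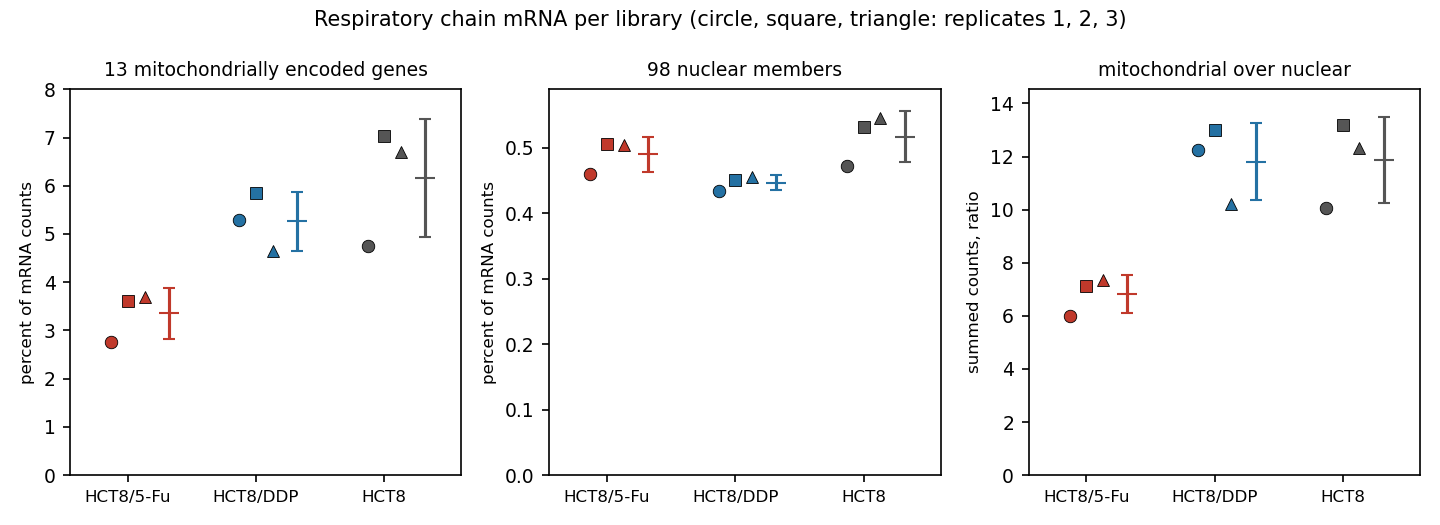
Percent of mRNA counts from the 13 mitochondrially encoded genes (left) and the 98 nuclear members (middle), and the ratio of the summed counts (right), in each library; bars give mean and SD of 3 libraries. The HCT8/5-Fu ratios (5.997 to 7.35) lie below those of HCT8/DDP (10.2 to 12.99) and HCT8 (10.1 to 13.2).

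Levels per length, in the deposited FPKM, differed widely between members of the same complex. These values depend on the gene lengths listed in the deposited data. ATP5F1A, listed at 10908 bases, averaged 340 CPM and 31.2 FPKM in HCT8/5-Fu. ATP5F1B, listed at 2238 bases, averaged 729 CPM and 326 FPKM there. Whether the listed lengths are those of the mRNAs was not tested. The highest mean of HCT8/5-Fu, HCT8/DDP and HCT8 was that of MT-CO1, with 10160, 15065 and 15016 FPKM. MT-CO2 averaged 3697, 8173 and 11067 FPKM in the same order of lines. The most abundant nuclear member, ATP5F1B, averaged 326, 274 and 224 FPKM, so that of the mitochondrial mRNAs only MT-ATP8 lay below it in all lines, while MT-ND4L and MT-ND6 lay on either side of it. MT-ATP8 shares 46 bases with MT-ATP6, MT-ATP6 shares 1 base with MT-CO3 and MT-ND4L shares 7 with MT-ND4, so how reads were divided between these neighbours depends on the authors' counting.

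In HCT8/5-Fu cells against HCT8 cells, 9 of the 13 mitochondrial mRNAs were lower at an adjusted p under 0.05 and 0 were higher, while 38.7% of the 13228 genes tested were called, 18.3% as lower. The median log2 fold change was -0.89 over the 13 mitochondrial genes and -0.004 over all genes. All 13 fold changes were negative, and for 12 of them every HCT8/5-Fu library lay below every HCT8 library. Over all genes tested the ranges of these lines were apart for 51.5%, with HCT8/5-Fu lower for 30.4% and higher for 21.1%. MT-CO1 was the exception. These ranges are of CPM on library totals, while the fold changes also use scaling factors. The factors were 0.924 to 1.04 in HCT8/5-Fu and 1.01 to 1.08 in HCT8. How many of the 13 genes stay apart with them was not counted. Without both replicates 1, a setting chosen after seeing the data, 11 of 13 were lower (the 9 plus MT-CO1 and MT-ND1), and 73.1% of all genes were called, 36.1% as higher and 36.9% as lower. Without HCT8 replicate 2 the number was 5, those called with each library left out in turn being MT-ATP6, MT-ATP8, MT-CO2, MT-ND4 and MT-ND4L. The fit without HCT8 replicate 2 called 3287 of the 13393 genes tested.

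The ATP synthase subunits were among the largest of these changes. MT-ATP6, which lines the proton channel, had 599, 755 and 809 CPM in HCT8/5-Fu, against 2000, 3046 and 2790 CPM in HCT8. The lines did not overlap, and the level was 3.36-fold lower in HCT8/5-Fu (log2 fold change -1.75, SE 0.24, edgeR adjusted p = 0.000681). MT-ATP8 had 2.07, 1.33 and 0.887 CPM in HCT8/5-Fu, against 4.86, 7.02 and 4.44 CPM in HCT8 (log2 fold change -1.86, SE 0.35, adjusted p = 0.00349).

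Of the catalytic core of complex IV, the cytochrome c oxidase, MT-CO2 and MT-CO3 were lower and MT-CO1 did not pass the test. MT-CO2 had 1983, 2819 and 2784 CPM in HCT8/5-Fu, against 5121, 9358 and 8232 CPM in HCT8 (log2 fold change -1.47, SE 0.30, adjusted p = 0.00535). MT-CO3 had 1307, 1350 and 1395 CPM in HCT8/5-Fu, against 2030, 3542 and 3317 CPM in HCT8 (log2 fold change -1.03, SE 0.25, adjusted p = 0.0103). Neither gene overlapped between the lines. MT-CO1, which holds the site of oxygen reduction, had 13945, 16065 and 16991 CPM in HCT8/5-Fu, against 16330, 26539 and 26596 CPM in HCT8, and HCT8 replicate 1 lay within the HCT8/5-Fu range. The log2 fold change of MT-CO1 was -0.46 (SE 0.30, adjusted p = 0.250), and -0.55 with an adjusted p of 1.38e-19 without both replicates 1, in a fit of 2 libraries a line.

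Complex I genes did not move evenly. MT-ND4, a proton-pumping subunit of the membrane arm, had 2989, 4849 and 4537 CPM in HCT8/5-Fu, against 8845, 11736 and 10817 CPM in HCT8 (log2 fold change -1.23, SE 0.28, adjusted p = 0.00881). MT-ND4L, its neighbour on the genome, had 52.4, 53.6 and 47.7 CPM in HCT8/5-Fu, against 109, 98.1 and 99.4 CPM in HCT8, and had the smallest standard error of the 13 (log2 fold change -0.89, SE 0.11, adjusted p = 0.000326). MT-ND2 (-0.93, SE 0.25, adjusted p = 0.0191) and MT-ND3 (-0.86, SE 0.21, adjusted p = 0.0110) were lower as well, but MT-ND2 not without HCT8 replicate 2 or 3 (adjusted p = 0.0801 and 0.0716). MT-ND1, MT-ND5 and MT-ND6 had log2 fold changes of -0.37, -0.24 and -0.16 with adjusted p of 0.287, 0.465 and 0.437. For MT-ND6 the value was 0.08 without both replicates 1. MT-CYB, the mitochondrial subunit of complex III, had 1450, 2191 and 2289 CPM in HCT8/5-Fu, against 3285, 4346 and 3924 CPM in HCT8 (log2 fold change -0.85, SE 0.26, adjusted p = 0.0288), and did not pass without HCT8 replicate 2 or 3 (adjusted p = 0.114 and 0.0915).

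In HCT8/DDP cells against the same HCT8 libraries, 5 of the 13 mitochondrial mRNAs were lower and 0 were higher, while 52.5% of the 13373 genes tested were called, 25.5% as lower. The median log2 fold change was -0.32 over the mitochondrial genes and -0.01 over all genes. MT-ATP6 had 1283, 1734 and 1241 CPM in HCT8/DDP, against 2000, 3046 and 2790 CPM in HCT8, with no overlap (log2 fold change -0.77, SE 0.18, adjusted p = 0.00304). It was the one mitochondrial gene called with each library left out in turn. The ranges of MT-CO3 and MT-ND3 overlapped with those of HCT8. Each of MT-CO3 (-0.64, SE 0.20), MT-ND3 (-0.54, SE 0.18), MT-CYB (-0.42, SE 0.15) and MT-ND4L (-0.35, SE 0.14) passed with all libraries, at adjusted p of 0.0176, 0.0274, 0.0299 and 0.0454, and the number of calls was 1 without HCT8/DDP replicate 1 or 3 or without HCT8 replicate 2 or 3. Without HCT8 replicate 1 it was 7 (the 5 plus MT-CO2 and MT-ND4), when 59.0% of all genes were called. The fits with 1 mitochondrial call gave 6120, 6267, 5887 and 5822 calls over the whole table, against 7019 with all libraries.

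The other mitochondrial genes did not pass the test in HCT8/DDP. MT-CO1 had 24441, 24148 and 21099 CPM in HCT8/DDP, against 16330, 26539 and 26596 CPM in HCT8, and its log2 fold change of 0.11 (SE 0.20, adjusted p = 0.663) was -0.10 without HCT8 replicate 1. MT-CO2 (-0.33, SE 0.23), MT-ND4 (-0.32, SE 0.16), MT-ND2 (-0.12, SE 0.16), MT-ND1 (-0.09, SE 0.13) and MT-ND5 (0.24, SE 0.13) had adjusted p of 0.247, 0.111, 0.575, 0.608 and 0.150. MT-ND6 was at 0.03 (SE 0.10), and at -0.10 with library totals in place of the scaling factors. MT-ATP8 had 3.18, 16.3 and 3.10 CPM in HCT8/DDP, against 4.86, 7.02 and 4.44 CPM in HCT8. Its 0.58 on the log2 scale (SE 0.51, adjusted p = 0.366) rested on replicate 2, without which it was -0.67.

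**Figure D2:**
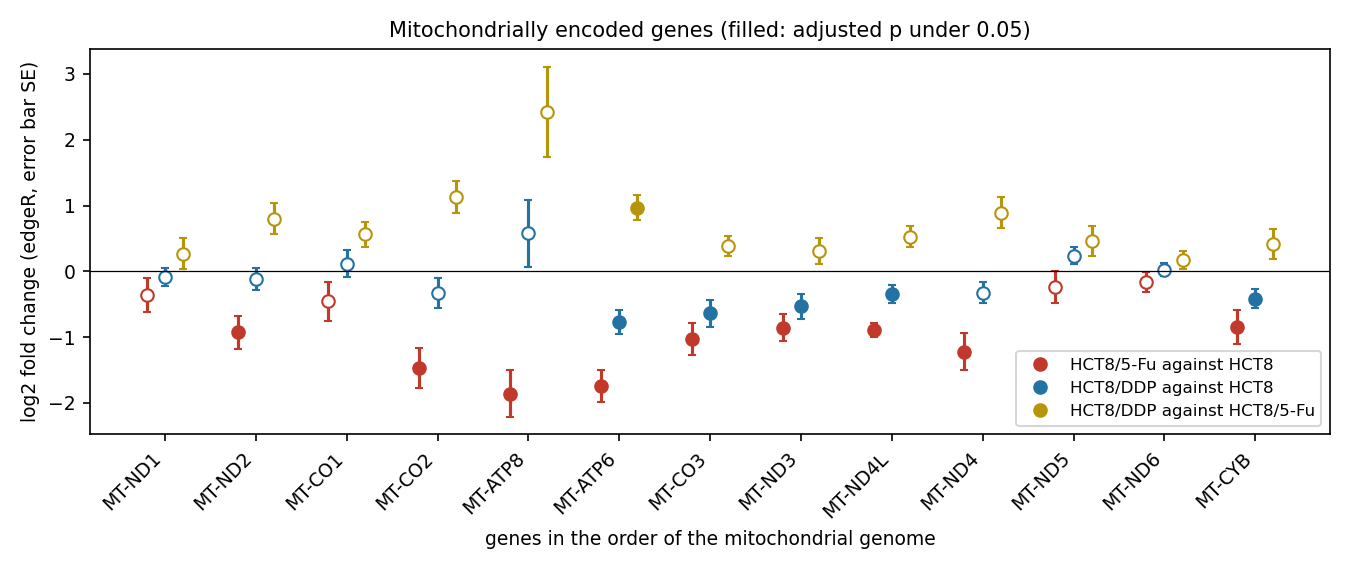
Log2 fold change with its standard error for each mitochondrially encoded gene, in the order of the mitochondrial genome, for HCT8/5-Fu against HCT8, HCT8/DDP against HCT8 and HCT8/DDP against HCT8/5-Fu; filled points have an adjusted p under 0.05. The first comparison has 13 negative values with MT-ATP8 (-1.86) and MT-ATP6 (-1.75) the farthest from 0, and the last has 13 positive values.

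Between the resistant lines, 1 of the 13 mitochondrial mRNAs was higher in HCT8/DDP than in HCT8/5-Fu, in a comparison that called 2.27% of the 13012 genes tested, 1.51% as higher and 0.753% as lower. That gene was MT-ATP6, with 1283, 1734 and 1241 CPM in HCT8/DDP, against 599, 755 and 809 CPM in HCT8/5-Fu (log2 fold change 0.97, SE 0.19, adjusted p = 0.0470). All 13 log2 fold changes were positive, with a median of 0.53 against -0.01 over all genes. For 11 of them every HCT8/DDP library lay above every HCT8/5-Fu library, which held in that direction for 14.2% of all genes tested, and the exceptions were MT-ND1 and MT-ND3. MT-CO2, 1.13 higher on the log2 scale (SE 0.24), missed the threshold with an adjusted p of 0.0526.

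This comparison depended on single libraries. The number of mitochondrial calls was 8 without HCT8/5-Fu replicate 1, when 29.9% of all genes were called, and 0 without any 1 of the other 5 libraries, when no gene of the table was called. The 8 were MT-ATP6, MT-ATP8, MT-CO1, MT-CO2, MT-CO3, MT-ND2, MT-ND4 and MT-ND4L. In that fit MT-CO2 had a log2 fold change of 0.93 with an adjusted p of 0.000647, and MT-ND4 of 0.66 with an adjusted p of 0.000506. DESeq2 on all 6 libraries called 6, and it called 1283 of the 13012 genes tested, against 295 by edgeR.

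The makeup of the mitochondrial mRNA pool also differed between the lines. MT-CO1 made up 50.7%, 44.5% and 45.9% of the mitochondrial counts in HCT8/5-Fu, 46.1%, 41.2% and 45.5% in HCT8/DDP and 34.4%, 37.8% and 39.6% in HCT8. Its share was above the HCT8 range in all 6 libraries of the resistant lines. MT-ATP6 made up 2.18%, 2.09% and 2.18% in HCT8/5-Fu, 2.42%, 2.96% and 2.67% in HCT8/DDP and 4.21%, 4.34% and 4.16% in HCT8. The 3 lines did not overlap for this gene, and the means were 2.15% ± 0.0513, 2.69% ± 0.269 and 4.23% ± 0.0923 (SD, n = 3 each). MT-ND4 made up 12.2% ± 1.29 in HCT8/5-Fu, 14.7% ± 0.501 in HCT8/DDP and 17.1% ± 1.30 in HCT8, again with no overlap. For MT-CO2 the share was 7.51% ± 0.303 in HCT8/5-Fu, 10.5% ± 1.56 in HCT8/DDP and 12.1% ± 1.28 in HCT8, and the ranges of HCT8/DDP and HCT8 overlapped. MT-ND5 went the other way, with 8.57% ± 0.728 in HCT8/5-Fu, 7.69% ± 0.525 in HCT8/DDP and 6.17% ± 1.05 in HCT8, and HCT8 replicate 1 (7.38%) lay apart from the other HCT8 libraries (5.50% and 5.62%). Shares of a whole are not independent, and these carry no test.

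**Figure D3:**
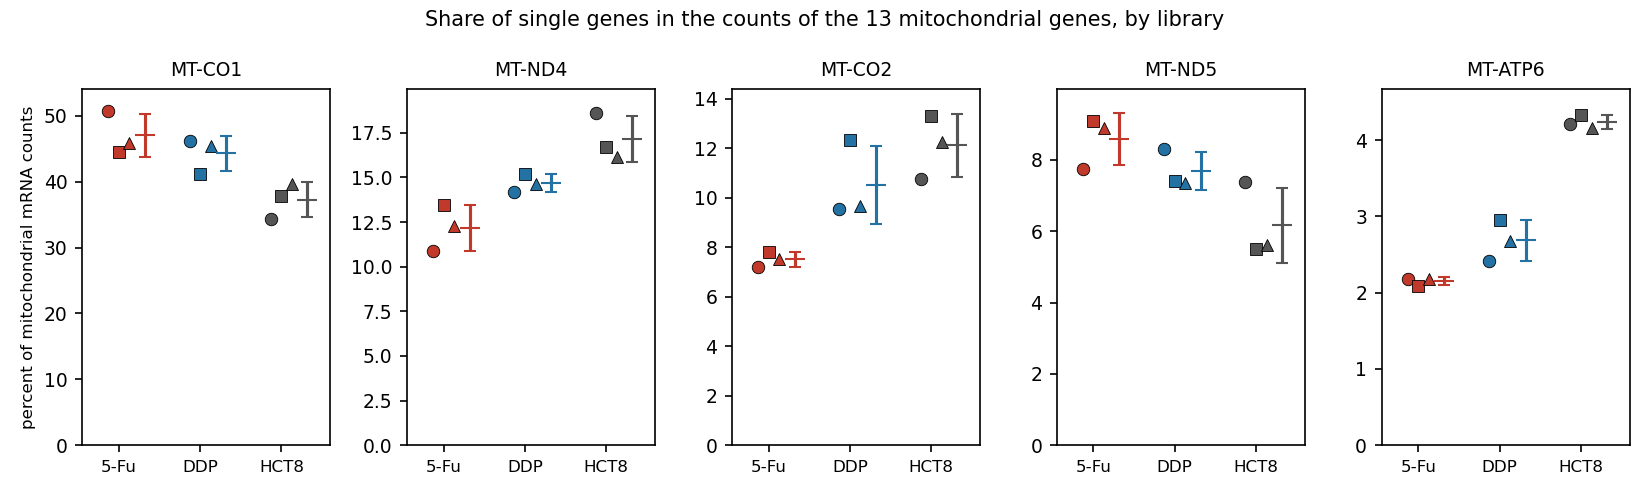
Share of MT-CO1, MT-ND4, MT-CO2, MT-ND5 and MT-ATP6 in the counts of the 13 mitochondrial genes, as a percent, in each library of HCT8/5-Fu, HCT8/DDP and HCT8; bars give mean and SD of 3 libraries. MT-ATP6 falls into 3 separate groups, with means of 2.15%, 2.69% and 4.23%.

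Nuclear members moved in both directions in HCT8/5-Fu. Of 98, 88 passed the filter on low counts, 5 were higher and 10 were lower, or 17.0% called where 38.7% of all genes were. The median log2 fold change was -0.05. With library totals as the scaling, which moved the median of all genes by -0.10, 3 were higher and 16 lower. Both counts moved with single libraries: 16 were higher and 12 lower without HCT8/5-Fu replicate 1, 2 and 5 without its replicate 2, 2 and 3 without its replicate 3, 3 and 1 without HCT8 replicate 2, and 1 and 1 without HCT8 replicate 3. In the same order, these fits called 7533, 3984, 3726, 3287 and 3274 genes of the whole table, against 5118 with all libraries. Without both replicates 1, 23 were higher and 33 lower, including all 15 of the calls with all libraries, and 73.1% of all genes were called.

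In HCT8/DDP, 89 nuclear members passed the filter, 6 were higher (1 of them NDUFA4L2, which passed the filter through its HCT8/DDP level) and 24 were lower, or 33.7% called where 52.5% of all genes were and 25.5% were called lower. The median log2 fold change was -0.18, against -0.01 over all genes. With library totals, which moved the median of all genes by -0.12, 6 were higher and 39 lower. The number lower was 12 without HCT8/DDP replicate 1, 11 without HCT8 replicate 2, 13 without HCT8 replicate 3 and 39 without HCT8 replicate 1, the last with 28.8% of all genes lower and 30.2% higher. In the same order, these fits called 6120, 5887, 5822 and 8024 genes of the whole table in either direction, against 7019 with all libraries. For 46 of all 98 nuclear members every HCT8/DDP library lay below every HCT8 library in CPM, and for 5 above. The 5 include COX6B2, which failed the filter and had at most 1 count in each HCT8 library. Of all genes tested, 38.2% lay below and 23.0% above (61.2% in either direction). The comparisons with HCT8 share its 3 libraries. Called in both were 3 nuclear members as higher (ATP5IF1, ATP5F1B and NDUFB10) and 9 as lower (ATP5MC2, ATP5ME, ATP5PD, NDUFA10, NDUFA11, NDUFAF7, NDUFS4, SDHA and SDHC), and the values of these genes follow by complex. The share of all genes called in both in the same direction was not counted, so these numbers have no background. Taken singly, the comparisons called 38.7% and 52.5% of all genes.

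**Figure D4:**
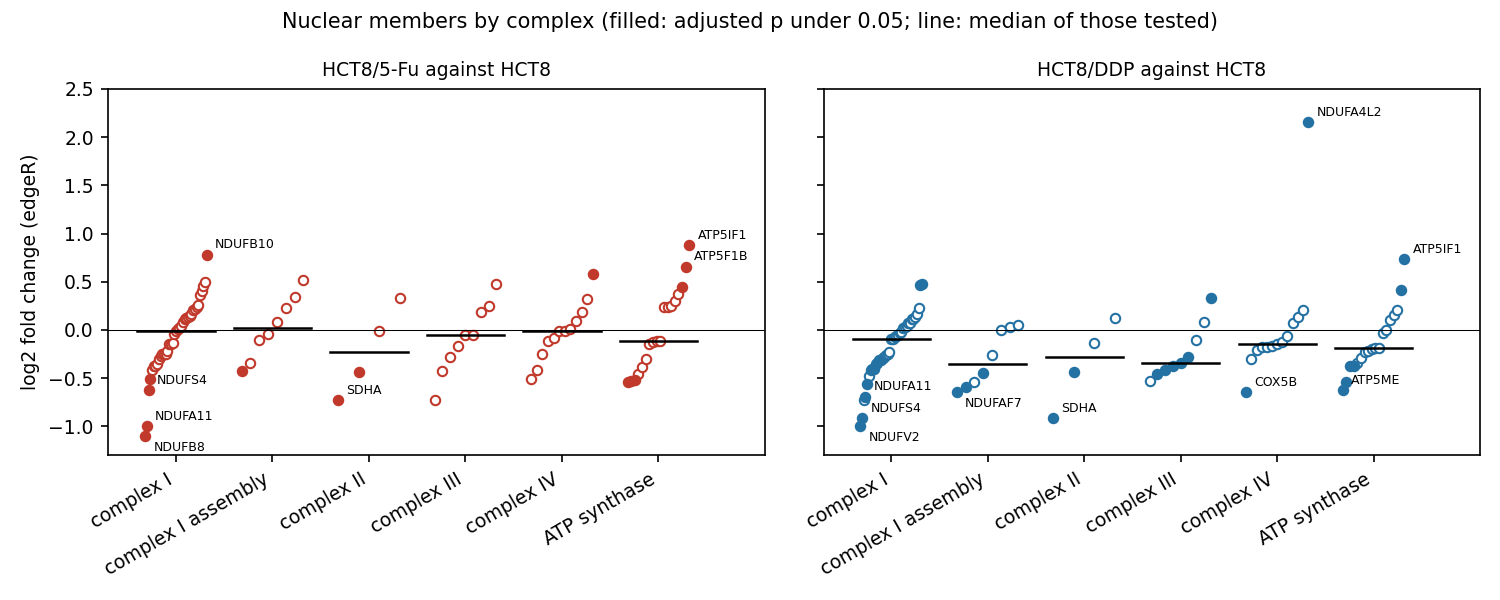
Log2 fold change of each nuclear member that passed the filter, by complex, in HCT8/5-Fu against HCT8 (left) and HCT8/DDP against HCT8 (right); filled points have an adjusted p under 0.05 and lines are medians. In HCT8/DDP 5 of 9 complex III members are lower, with 25.5% of all genes, and in HCT8/5-Fu 0 of 9, with 18.3% of all genes.

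Complex I, the NADH dehydrogenase, had 37 nuclear members, all tested. In HCT8/5-Fu 1 was higher and 4 were lower (10.8%, against 18.3% of all genes), and in HCT8/DDP 2 were higher and 9 lower (24.3%, against 25.5% of all genes), so that neither share of lower calls was above that of all genes. NDUFB10, an accessory subunit of the membrane arm, had 29.2, 41.7 and 41.9 CPM in HCT8/5-Fu and 26.2, 33.0 and 31.1 CPM in HCT8/DDP, against 26.7, 23.5 and 21.2 CPM in HCT8. HCT8/5-Fu did not overlap with HCT8, while HCT8/DDP replicate 1 lay within the HCT8 range. The log2 fold change was 0.78 (SE 0.19, adjusted p = 0.0128) in HCT8/5-Fu and 0.46 (SE 0.13, adjusted p = 0.00773) in HCT8/DDP, and 0.72 with an adjusted p of 0.0587 in HCT8/5-Fu without HCT8 replicate 3. The call of NDUFB10 in HCT8/DDP was lost in the fit of all 9 libraries (adjusted p = 0.0570). NDUFS8, which carries iron-sulfur clusters of the electron path, was higher in HCT8/DDP (0.48, SE 0.09, adjusted p = 0.000942).

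The complex I genes that were lower included subunits of its matrix arm. NDUFV2, an iron-sulfur subunit near the site of NADH oxidation, had 11.03, 11.7 and 13.3 CPM in HCT8/DDP, against 33.0, 21.8 and 23.9 CPM in HCT8, with no overlap (log2 fold change -0.996, SE 0.16, adjusted p = 0.000169). In HCT8/5-Fu it had 26.8, 15.9 and 12.7 CPM, and replicate 1 lay within the HCT8 range. NDUFS4, an accessory subunit whose loss causes Leigh syndrome, had 15.3, 16.8 and 14.1 CPM in HCT8/5-Fu and 14.5, 11.9 and 11.2 CPM in HCT8/DDP, against 18.9, 29.7 and 27.8 CPM in HCT8. In CPM on library totals, every library of the resistant lines lay below every HCT8 library. The log2 fold change, which also uses the scaling factors, was -0.63 (SE 0.21, adjusted p = 0.0407) in HCT8/5-Fu and -0.91 (SE 0.18, adjusted p = 0.00110) in HCT8/DDP. The call in HCT8/5-Fu was lost without its replicate 3 or HCT8 replicate 2 or 3 (adjusted p = 0.113 to 0.165).

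Among accessory subunits, NDUFA11 had 6.15, 2.91 and 3.12 CPM in HCT8/5-Fu and 5.48, 4.94 and 4.15 CPM in HCT8/DDP, against 8.61, 7.50 and 9.43 CPM in HCT8. It was lower in HCT8/5-Fu (-0.998, SE 0.28, adjusted p = 0.0211) and did not pass there without any 1 of HCT8/5-Fu replicates 2 and 3 and the HCT8 libraries (adjusted p = 0.0510 to 0.0857), and it was lower in HCT8/DDP (-0.69, SE 0.19, adjusted p = 0.00928), though not without HCT8 replicate 3 (0.0535). NDUFA10 was lower in HCT8/5-Fu (-0.51, SE 0.12, adjusted p = 0.0113) and in HCT8/DDP (-0.31, SE 0.10, adjusted p = 0.0168), with 133 to 142 CPM in HCT8/5-Fu and 142 to 163 CPM in HCT8/DDP, against 200 to 218 CPM in HCT8. The calls were lost without HCT8 replicate 2 or 3 (adjusted p = 0.0514 and 0.0656 in HCT8/5-Fu, 0.0516 and 0.0849 in HCT8/DDP), and that in HCT8/DDP also without its replicate 1 (0.0904). NDUFB8 was at a low level, with 27 to 80 counts in the 9 libraries, or 1.61, 1.05 and 0.957 CPM in HCT8/5-Fu, against 2.53, 2.28 and 3.41 CPM in HCT8 (-1.10, SE 0.34, adjusted p = 0.0299). It did not pass without HCT8/5-Fu replicate 2 or 3 or HCT8 replicate 2 or 3 (adjusted p = 0.0667 to 0.148). NDUFA3 was lower in HCT8/DDP (-0.56, SE 0.12, adjusted p = 0.00163), where it had 14.5, 15.6 and 13.5 CPM, against 23.6, 23.0 and 23.5 CPM in HCT8.

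The 8 NDUFAF genes encode factors that help assemble complex I and are not part of it. In HCT8/5-Fu 1 was lower and in HCT8/DDP 3 were lower, against 18.3% and 25.5% of all genes, and 0 were higher in either line. NDUFAF7, which methylates a core subunit, had 31.6, 21.5 and 22.6 CPM in HCT8/5-Fu and 19.1, 21.2 and 23.2 CPM in HCT8/DDP, against 34.8, 36.7 and 36.4 CPM in HCT8, with no overlap. The log2 fold change was -0.42 (SE 0.14, adjusted p = 0.0426) in HCT8/5-Fu and -0.64 (SE 0.12, adjusted p = 0.000553) in HCT8/DDP. In HCT8/5-Fu it did not pass without any 1 of HCT8/5-Fu replicates 2 and 3 and HCT8 replicates 2 and 3 (adjusted p = 0.138 to 0.156). NDUFAF1 (-0.59, SE 0.16, adjusted p = 0.00900) and NDUFAF4 (-0.45, SE 0.15, adjusted p = 0.0232) were lower in HCT8/DDP, the call of NDUFAF4 being lost without HCT8/DDP replicate 1 or 2 or HCT8 replicate 2 (adjusted p = 0.0738 to 0.101) and in the fit of 9 libraries (0.0511). NDUFAF4 had 10.9, 12.2 and 14.3 CPM in HCT8/DDP, against 19.1, 24.0 and 21.9 CPM in HCT8/5-Fu, and the difference between these lines of -0.81 on the log2 scale (SE 0.18) missed the threshold with an adjusted p of 0.0547.

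Complex II, the succinate dehydrogenase, also works in the citric acid cycle. Of its 4 genes, SDHA and SDHC were lower in both resistant lines and SDHB and SDHD were called in neither. Of all genes, 18.3% were lower in HCT8/5-Fu and 25.5% in HCT8/DDP. SDHA, the flavoprotein that oxidises succinate, had 15.2, 8.80 and 11.2 CPM in HCT8/5-Fu and 10.2, 9.38 and 10.6 CPM in HCT8/DDP, against 22.5, 19.2 and 20.3 CPM in HCT8. Neither resistant line overlapped with HCT8, and the level was 1.66-fold lower in HCT8/5-Fu (log2 fold change -0.73, SE 0.18, adjusted p = 0.0125) and 1.88-fold lower in HCT8/DDP (-0.91, SE 0.13, adjusted p = 9.04e-05). Both calls held with each library left out in turn. SDHC, a membrane anchor, had 213, 185 and 178 CPM in HCT8/5-Fu and 191, 192 and 187 CPM in HCT8/DDP, against 242, 292 and 301 CPM in HCT8. The log2 fold change was -0.44 in each line (SE 0.14, adjusted p = 0.0315 in HCT8/5-Fu, and SE 0.11, adjusted p = 0.00501 in HCT8/DDP). The call in HCT8/5-Fu was lost without any 1 of its replicates 2 and 3 and HCT8 replicates 2 and 3 (adjusted p = 0.0895 to 0.143).

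SDHB, the iron-sulfur subunit, had 98.9, 125 and 111 CPM in HCT8/5-Fu and 94.7, 95.8 and 99.2 CPM in HCT8/DDP, against 87.1, 98.6 and 102 CPM in HCT8. The log2 fold change was 0.33 (SE 0.15, adjusted p = 0.120) in HCT8/5-Fu, and 0.46 with an adjusted p of 0.00809 without HCT8/5-Fu replicate 1. In HCT8/DDP it was 0.13 (SE 0.10, adjusted p = 0.299). SDHD, the other membrane anchor, was at -0.02 (SE 0.14, adjusted p = 0.940) in HCT8/5-Fu and -0.13 (SE 0.12, adjusted p = 0.352) in HCT8/DDP. Without HCT8 replicate 1, SDHD was lower in HCT8/DDP (-0.23, adjusted p = 0.0425).

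Complex III, the cytochrome bc1 complex, gave 0 edgeR calls among 9 nuclear members in HCT8/5-Fu, where 2 had an unadjusted p under 0.05, UQCRB and UQCR11. In HCT8/DDP 1 was higher and 5 were lower, against 27.0% and 25.5% of all genes. UQCRC1, a core subunit, was higher (0.34, SE 0.09, adjusted p = 0.00823), with 194, 199 and 194 CPM in HCT8/DDP, against 159, 167 and 178 CPM in HCT8. UQCRC2, its partner in the core, was lower (-0.37, SE 0.11, adjusted p = 0.0124), with 134, 152 and 142 CPM in HCT8/DDP, against 177, 213 and 210 CPM in HCT8. The core subunits thus differed in opposite directions from HCT8 with no overlap of libraries in CPM. However, UQCRC1 did not pass in the fit of all 9 libraries (adjusted p = 0.0710). UQCRC2 did not pass without HCT8/DDP replicate 1, HCT8 replicate 2 or HCT8 replicate 3 (adjusted p = 0.0553 to 0.0615). UQCR10 (-0.41, SE 0.11, adjusted p = 0.00933) and UQCRB (-0.46, SE 0.14, adjusted p = 0.0131) were lower. Neither passed without HCT8 replicate 2 (adjusted p = 0.0553 and 0.0695), nor UQCRB without HCT8/DDP replicate 1 or 2 (0.0612 and 0.0646). UQCRHL, a close copy of UQCRH that cannot be separated from it where reads match both, had 0.907 to 1.56 CPM in HCT8/5-Fu, 0.784 to 1.86 CPM in HCT8/DDP and 1.01 to 2.63 CPM in HCT8.

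Complex IV had 19 nuclear members, of which 12 were tested in HCT8/5-Fu and 13 in HCT8/DDP. COX5A was higher in HCT8/5-Fu (0.58, SE 0.17, adjusted p = 0.0232), with 41.4, 46.8 and 47.1 CPM, against 39.2, 25.6 and 33.3 CPM in HCT8, and did not pass with library totals (adjusted p = 0.0575) or without HCT8/5-Fu replicate 2 or 3 or HCT8 replicate 2 or 3 (0.0679 to 0.0904). COX5B was lower in HCT8/DDP (-0.65, SE 0.16, adjusted p = 0.00395), with 24.8, 26.9 and 23.6 CPM, against 31.995, 47.3 and 48.1 CPM in HCT8. Both are small subunits that surround the catalytic core. COX5B in HCT8/5-Fu had 28.2, 23.6 and 31.8 CPM, also below each HCT8 library.

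Tissue isoforms of complex IV subunits were nearly silent. COX4I2, COX6A2, COX7A1 and COX7B2 had no count in any of the 9 libraries, where 3 counts equal 0.105 to 0.152 CPM. COX8C had at most 0.171 CPM. COX6B2, which is known from testis, had 0.252, 0.876 and 0.355 CPM in HCT8/5-Fu and 0.370, 0.931 and 0.224 CPM in HCT8/DDP, against 0.0506, 0.0431 and 0 CPM in HCT8. All 6 libraries of the resistant lines lay above the HCT8 libraries, which were under the floor of 3 counts, but the gene failed the filter against HCT8 and was not tested there. NDUFA4L2, a paralog of the subunit NDUFA4 that is induced in hypoxia, had 2.52, 2.40 and 0.336 CPM in HCT8/DDP, against 0.304, 0.603 and 0.341 CPM in HCT8. HCT8/DDP replicate 3 lay within the HCT8 range. The gene passed the filter on low counts through its HCT8/DDP level and failed it in HCT8/5-Fu against HCT8, so no test is given for it.

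ATP synthase had 19 nuclear members, of which 18 were tested. In HCT8/5-Fu 3 were higher and 3 were lower, and in HCT8/DDP 2 were higher and 4 lower. The called share was 33.3% in each line, below the 38.7% and 52.5% of all genes. ATP5IF1, the inhibitor protein that stops the enzyme from running in reverse and hydrolysing ATP, had 53.3, 62.4 and 64.0 CPM in HCT8/5-Fu and 52.3, 54.1 and 55.2 CPM in HCT8/DDP, against 34.1, 35.2 and 35.9 CPM in HCT8. Every library of both resistant lines lay above every HCT8 library. Its level was 1.84-fold higher in HCT8/5-Fu (log2 fold change 0.88, SE 0.14, adjusted p = 0.00148) and 1.67-fold higher in HCT8/DDP (0.74, SE 0.10, adjusted p = 3.63e-05), and both calls held with each library left out in turn.

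ATP5F1B, the catalytic beta subunit, had 613, 780 and 794 CPM in HCT8/5-Fu and 602, 604 and 635 CPM in HCT8/DDP, against 506, 481 and 515 CPM in HCT8, with no overlap. Its log2 difference was 0.66 (SE 0.17, adjusted p = 0.0158) in HCT8/5-Fu and 0.41 (SE 0.10, adjusted p = 0.00296) in HCT8/DDP. The call in HCT8/5-Fu was lost without its replicate 2 or 3 or HCT8 replicate 2 or 3 (adjusted p = 0.0576 to 0.0684). ATP5F1E, the epsilon subunit of the central stalk, was higher in HCT8/5-Fu (0.45, SE 0.13, adjusted p = 0.0257), and did not pass with library totals (adjusted p = 0.0702), with upper-quartile factors (0.0587) or without HCT8/5-Fu replicate 2 or 3 or HCT8 replicate 3 (0.0665 to 0.0781).

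Among subunits of the membrane sector and the peripheral stalk, ATP5MC2, ATP5ME and ATP5PD were lower in both lines and ATP5MC3 in HCT8/DDP, while others, such as ATP5MC1, ATP5MG and ATP5PB, were called in neither. ATP5MC2, a gene for the c subunit that forms the rotating ring, had 76.7, 90.0 and 92.7 CPM in HCT8/5-Fu and 81.9, 89.3 and 84.9 CPM in HCT8/DDP, against 126, 123 and 153 CPM in HCT8. It was lower in HCT8/5-Fu (-0.52, SE 0.16, adjusted p = 0.0273) and in HCT8/DDP (-0.54, SE 0.11, adjusted p = 0.00103), and the call in HCT8/5-Fu was lost without HCT8 replicate 2 or 3 (adjusted p = 0.0626 and 0.127). ATP5MC3, another gene for the same protein, was lower in HCT8/DDP (-0.37, SE 0.12, adjusted p = 0.0180) but not without HCT8/DDP replicate 1 or HCT8 replicate 2 or 3 (adjusted p = 0.0651 to 0.0908). ATP5ME, subunit e, was lower in both lines (-0.53, SE 0.18, adjusted p = 0.0493 in HCT8/5-Fu, and -0.62, SE 0.17, adjusted p = 0.00728 in HCT8/DDP). Its call in HCT8/5-Fu was lost without any 1 of HCT8/5-Fu replicates 2 and 3 and the HCT8 libraries (adjusted p = 0.0586 to 0.192) and without the filter (0.0545). ATP5PD, subunit d of the peripheral stalk, was lower in HCT8/5-Fu (-0.54, SE 0.17, adjusted p = 0.0341) and in HCT8/DDP (-0.37, SE 0.14, adjusted p = 0.0413). With 1 library left out it passed in 3 of 6 fits in HCT8/5-Fu (adjusted p = 0.0913 to 0.149 in the others) and in 1 of 6 in HCT8/DDP (0.0653 to 0.209 in the others), where the fit of 9 libraries gave 0.0695. With all libraries, members of 1 enzyme thus differed from HCT8 in opposite directions in both resistant lines, ATP5F1B and the inhibitor upward and ATP5MC2 downward.

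**Figure D5:**
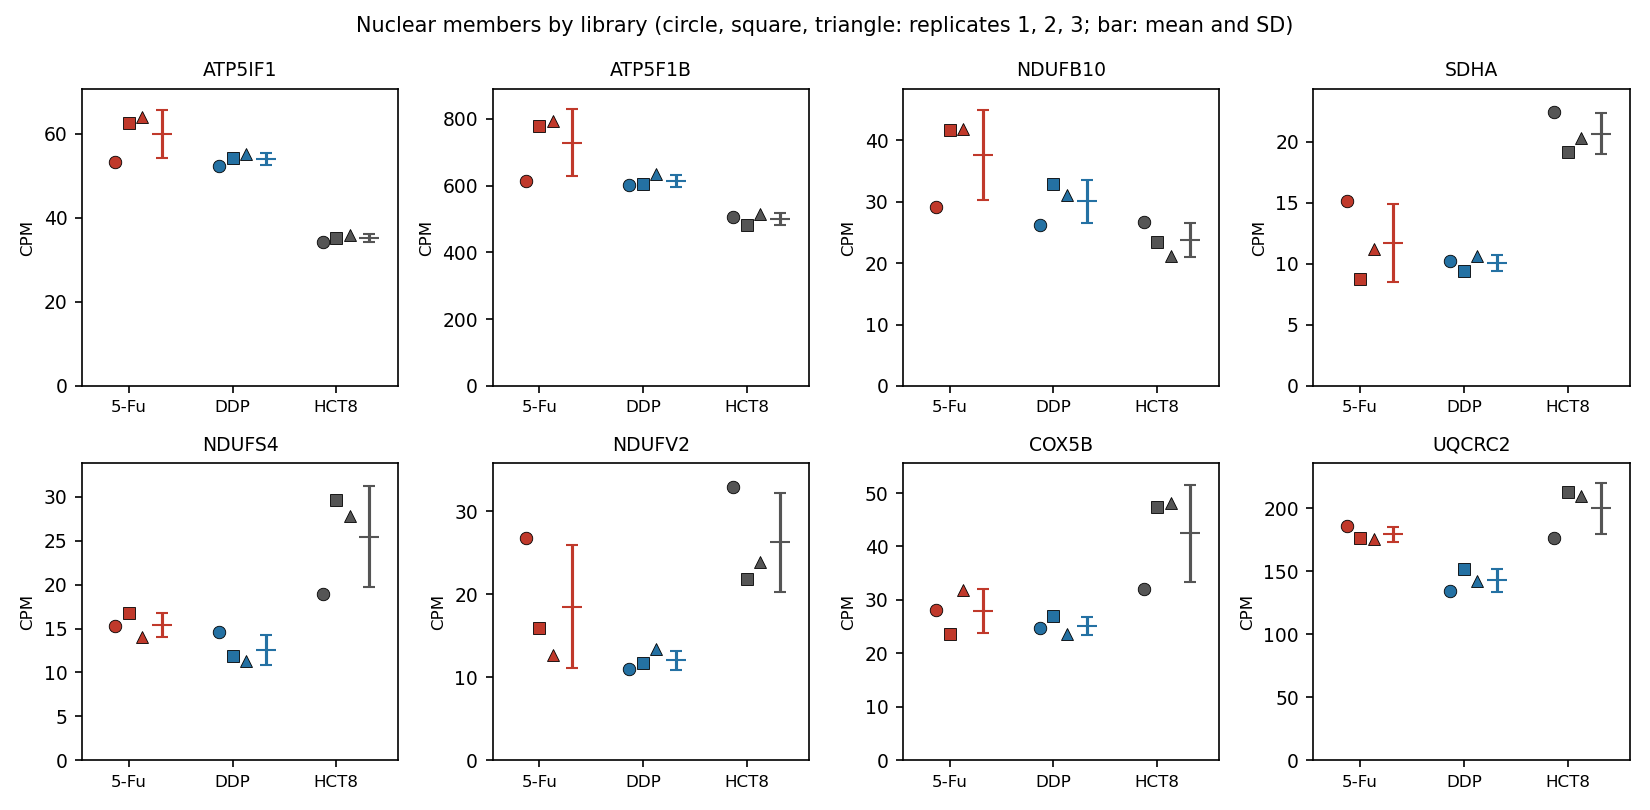
CPM of 8 nuclear members in each library of HCT8/5-Fu, HCT8/DDP and HCT8; bars give mean and SD of 3 libraries. ATP5IF1 is at 52.3 to 64.0 CPM in the resistant lines and 34.1 to 35.9 CPM in HCT8, and SDHA at 8.80 to 15.2 CPM and 19.2 to 22.5 CPM.

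Between HCT8/DDP and HCT8/5-Fu, 0 of 90 nuclear members tested were called by edgeR, and DESeq2 called 5, all lower in HCT8/DDP. Of all 13012 genes tested, edgeR called 295 and DESeq2 1283. Of the 90, 14 had an unadjusted p under 0.05. The median log2 fold change was -0.14, against -0.01 over all genes, and 73 of 90 values were negative. Without HCT8/5-Fu replicate 1, 25 nuclear members were lower in HCT8/DDP, as were 15.9% of all genes. In the other direction, with 13.9% of all genes, the 1 call was NDUFA4L2, which passed the filter through its HCT8/DDP level. Among the 25, NDUFAF4 (-0.95), NDUFB10 (-0.54), COX5A (-0.50), ATP5F1B (-0.42) and ATP5IF1 (-0.29) had adjusted p of 0.000514, 0.00274, 0.00142, 0.00102 and 0.0136 in that fit.

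Genes around the complexes were counted from fixed lists. Of 10 regulators, 9 were tested, and 2 were higher and 2 lower in HCT8/5-Fu, against 20.4% and 18.3% of all genes. In HCT8/DDP 1 was higher and 1 lower, against 27.0% and 25.5% of all genes. ESRRA, a nuclear receptor that activates respiratory genes, was higher in HCT8/5-Fu (1.21, SE 0.14, adjusted p = 0.000226) and in HCT8/DDP (0.80, SE 0.12, adjusted p = 0.000129). GABPA, an ETS factor of respiratory promoters, was lower in HCT8/5-Fu (-0.53, SE 0.13, adjusted p = 0.00967) and in HCT8/DDP (-0.50, SE 0.10, adjusted p = 0.00114). Its call in HCT8/5-Fu was lost without HCT8 replicate 2 (adjusted p = 0.0530). GABPB2 (-0.48, SE 0.14, adjusted p = 0.0238) was lower and PPRC1 (0.65, SE 0.21, adjusted p = 0.0352) higher in HCT8/5-Fu. GABPB2 did not pass without HCT8/5-Fu replicate 3 or HCT8 replicate 2 or 3 (adjusted p = 0.0710 to 0.109). PPRC1 did not pass with library totals (adjusted p = 0.0728), upper-quartile factors (0.0559) or a replicate block (0.0936). Nor did PPRC1 pass without HCT8/5-Fu replicate 2 or 3 or HCT8 replicate 2 or 3 (0.0848 to 0.136). NRF1 had log2 fold changes of -0.10 in HCT8/5-Fu and -0.30 in HCT8/DDP (adjusted p = 0.645 and 0.110), and PPARGC1A of -0.54 and -0.66 (adjusted p = 0.397 and 0.245). The values of YY1 were 0.38 and 0.12 (adjusted p = 0.0787 and 0.258), those of GABPB1 were -0.12 and -0.27 (adjusted p = 0.514 and 0.0517), and those of PPARGC1B were 0.08 and -0.32 (adjusted p = 0.720 and 0.0976). Without HCT8/5-Fu replicate 1, YY1 was higher in HCT8/5-Fu (0.53, adjusted p = 0.00111). Without both replicates 1, PPARGC1B (0.31, adjusted p = 0.00205) was higher and PPARGC1A (-1.20, 0.0231) lower there. Without HCT8 replicate 1, PPRC1 (0.50, adjusted p = 0.000172) was higher in HCT8/DDP, and GABPB1 (-0.28, 0.0411) and GABPB2 (-0.30, 0.0471) were lower.

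Of 28 genes for transcription and processing of mitochondrial RNA, 27 were tested, and 7 were higher and 0 lower in HCT8/5-Fu, against 20.4% and 18.3% of all genes. They included TFB2M, a factor for transcription start (0.55, SE 0.12, adjusted p = 0.00752), SUPV3L1, a helicase of RNA decay (0.56, SE 0.12, adjusted p = 0.00636) and PDE12, which removes poly(A) (0.72, SE 0.18, adjusted p = 0.0137). The PDE12 call was lost without HCT8 replicate 2 or 3 (adjusted p = 0.0657 and 0.0640). In HCT8/DDP 3 of the 27 were higher and 6 lower, against 27.0% and 25.5% of all genes. Among them were POLRMT, the mitochondrial RNA polymerase (0.63, SE 0.11, adjusted p = 0.000446, and 0.64, SE 0.20, adjusted p = 0.0319 in HCT8/5-Fu), and TFAM, which packages mitochondrial DNA (-0.41, SE 0.11, adjusted p = 0.00627). MTPAP, the mitochondrial poly(A) polymerase (-0.61, SE 0.10, adjusted p = 0.0361), and PDE12 (-0.63, SE 0.12, adjusted p = 0.0391) were lower in HCT8/DDP than in HCT8/5-Fu.

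Of 12 genes for mitochondrial DNA upkeep, 3 were higher and 0 lower in HCT8/5-Fu: RRM2B, a ribonucleotide reductase subunit (1.29, SE 0.18, adjusted p = 0.000746), the helicase TWNK (1.11, SE 0.20, adjusted p = 0.00291) and RNASEH1 (0.78, SE 0.13, adjusted p = 0.00196). Of all genes, 20.4% were higher and 18.3% lower. In HCT8/DDP, where 27.0% and 25.5% of all genes were called higher and lower, 1 was higher, RRM2B (1.15, SE 0.13, adjusted p = 8.45e-06), and 3 were lower, among them POLG, the DNA polymerase (-0.40, SE 0.12, adjusted p = 0.0142). The POLG call was lost without HCT8/DDP replicate 2 (adjusted p = 0.0697). TWNK and RNASEH1 were also lower in HCT8/DDP than in HCT8/5-Fu (adjusted p = 0.0389 and 0.0417), and with 1 library left out these 2, MTPAP and PDE12 passed in that comparison only where it was HCT8/5-Fu replicate 1.

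The other lists were mixed and are to be read against the calls over all genes, which were 20.4% higher and 18.3% lower in HCT8/5-Fu. In HCT8/DDP these shares were 27.0% and 25.5%. Of 76 mitochondrial ribosomal protein genes tested, 9 were higher and 3 lower in HCT8/5-Fu, and 6 higher and 18 lower in HCT8/DDP, with MRPL48 (-0.84 and -0.83) and MRPS31 (-0.72 and -0.81) lower in both. Of 46 further assembly factors tested, 6 were higher and 4 lower in HCT8/5-Fu, and 2 higher and 15 lower in HCT8/DDP, and UQCC2, a factor for complex III, was lower in both (-0.49 and -0.51). Of 19 citric acid cycle genes, HCT8/5-Fu had 5 higher and 5 lower, and HCT8/DDP had 6 of each. OGDH was higher (0.84 in HCT8/5-Fu and 0.78 in HCT8/DDP), and SUCLG1 (-1.09 and -0.89) and IDH2 (-1.19 and -0.49) were lower. Of 20 genes for mitochondrial import, channels and fusion, HCT8/5-Fu had 3 higher and 1 lower, HCT8/DDP had 2 higher and 6 lower, and MFN2 (1.10 and 0.86) and MFN1 (-0.49 and -0.50), which both fuse outer membranes, went in opposite directions. The MFN1 call in HCT8/5-Fu was lost without its replicate 3 or HCT8 replicate 2 (adjusted p = 0.0554 and 0.0577). With all libraries, cytochrome c (CYCS) passed in neither line. It was higher in HCT8/5-Fu without its replicate 1 (0.35, adjusted p = 0.0185) and without both replicates 1 (0.28, adjusted p = 1.13e-05). In HCT8/DDP CYCS was lower with library totals (adjusted p = 0.0140) and with upper-quartile factors (0.0274). It was also lower there without HCT8/DDP replicate 3 (0.0378) or HCT8 replicate 1 (0.0195). CYC1 of complex III was lower in HCT8/DDP at the threshold (-0.25, SE 0.10, adjusted p = 0.0499). That call was lost without any 1 of the 6 libraries (adjusted p = 0.0529 to 0.213). In HCT8/5-Fu CYC1 was higher without both replicates 1 (0.34, adjusted p = 5.52e-07). The 11 nuclear MTRNR2L genes, which resemble mitochondrial rRNA, were under the filter in all comparisons.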

How the data were processed

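mRNA was measured in 9 libraries, 3 for each of 3 lines. The study's methods describe rRNA removal, RNase R treatment and stranded libraries for circular RNA. Whether the mRNA table came from RNase R-treated RNA is not given in the sources used here, nor is the strand setting of the counting. The submitters' processing notes name HISAT2 and DESeq2 and list mm9 as the build, although the gene positions in the table overlap the human RefSeq genes of GRCh38.p14 for all 111 members. The deposited table holds raw counts per gene, used for all tests, and the authors' FPKM (counts per gene length and library total), used only to compare levels between genes. The tables of other RNA classes were not used here.

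Counts were filtered with filterByExpr, scaled by trimmed mean of M-values (TMM) factors and tested with edgeR 4.0.16 (glmQLFit, glmQLFTest; R 4.3.3, limma 3.58.1) in a separate fit of 6 libraries per comparison. Adjusted p is Benjamini-Hochberg over all genes tested, a call is an adjusted p under 0.05, and SE is the log2 fold change over the root of F. CPM values use library totals of 19753035 to 28535882 counts, and so do all statements that the CPM of lines overlap or lie apart. Whether these hold with the TMM factors was not counted. The procedure was tested on simulated data. Members and lists were chosen with earlier results of these data known. Named nuclear genes were, in each complex and direction, up to 3 called with the lowest p, plus the 13 mitochondrial genes, complex II and the isoforms. From each other list, up to 3 called genes per comparison and all regulators and electron carriers were eligible. Other genes named were chosen after their values were seen. Alternatives were other scalings, DESeq2 1.42.0, no filter, 1 fit of all 9 libraries, a replicate block, summed FPKM, and leaving out each library. Leaving out replicate 1 of HCT8/5-Fu and of HCT8 together was chosen after seeing the data. Libraries with the same replicate number did not deviate together (r from -0.253 to 0.0992), so the numbers were not used as pairs.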

Additional observations from a re-analysis of the deposited data

Results flagged for a closer look

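For 9 of the genes named by rule, the direct test between the resistant lines (edgeR, HCT8/DDP against HCT8/5-Fu) passed, so that their differences from HCT8 were unequal in the lines. Among them 1 is a member of the respiratory complexes, MT-ATP6, with a log2 fold change of 0.97 (adjusted p = 0.0470). PC, the pyruvate carboxylase that feeds the citric acid cycle, was at 1.03 (SE 0.17, adjusted p = 0.0335), and the lines lay on either side of HCT8, with -0.70 in HCT8/5-Fu (adjusted p = 0.0169) and 0.34 in HCT8/DDP (adjusted p = 0.0200).

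The other genes were lower in HCT8/DDP than in HCT8/5-Fu. DMAC1, a factor for the assembly of complex I, was at -0.77 (adjusted p = 0.0271), TWNK at -0.74 (adjusted p = 0.0389), PDE12 at -0.63 (adjusted p = 0.0391) and MTPAP at -0.61 (adjusted p = 0.0361). MRPS30 of the mitochondrial ribosome was at -0.57 (adjusted p = 0.0281), RNASEH1 at -0.55 (adjusted p = 0.0417) and TOMM70, an import receptor of the outer membrane, at -0.49 (adjusted p = 0.0499). None of the 9 passed without any 1 of the libraries other than HCT8/5-Fu replicate 1, and each passed without that library.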

How the results depend on the processing

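Of the comparisons with all 6 libraries, leaving out each library in turn gave 5 to 9 lower mitochondrial genes, 1 to 16 higher and 1 to 12 lower nuclear members in HCT8/5-Fu against HCT8, and 1 to 7, 5 to 7 and 11 to 39 in HCT8/DDP against HCT8. In HCT8/DDP against HCT8/5-Fu it gave 0 to 8 mitochondrial genes and 0 to 1 higher and 0 to 25 lower nuclear members. Over the whole table, these fits called 3274 to 7533, 5821 to 8024 and 0 to 3929 genes in the same order of comparisons. Called in every such fit were 5 of 9 mitochondrial genes and 1 of 5 higher and 1 of 10 lower nuclear members in HCT8/5-Fu, and 1 of 5, 5 of 6 and 10 of 24 in HCT8/DDP. Fits with fewer libraries have fewer residual degrees of freedom. Library totals gave 3 higher and 16 lower nuclear members in HCT8/5-Fu and 39 lower in HCT8/DDP, and leaving out both replicates 1 gave 23 and 33 in HCT8/5-Fu. The fit of all 9 libraries called 2 mitochondrial genes in HCT8/DDP against HCT8. In HCT8/DDP against HCT8/5-Fu, mitochondrial calls numbered 2 with library totals, 2 with upper-quartile factors, 2 without the filter, 3 in the fit of 9 libraries and 6 with DESeq2, and lower nuclear calls 1 without the filter, 1 in the fit of 9 libraries and 5 with DESeq2. Over all genes, calls numbered 243 with library totals, 366 with upper-quartile factors, 363 without the filter, 635 in the fit of 9 libraries and 1283 with DESeq2. The edgeR fit with TMM factors called 295. The cause of these shifts was not tested.

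With a replicate block the calls were 10 mitochondrial, 4 higher and 9 lower nuclear in HCT8/5-Fu, 5, 6 and 24 in HCT8/DDP, and 0, 0 and 0 in HCT8/DDP against HCT8/5-Fu, where no gene of the table was called, although with all 6 libraries and no block MT-ATP6 was. The replicate numbers do not pair the libraries. From summed FPKM the mitochondrial share was 12.1% in HCT8/5-Fu, 18.5% in HCT8/DDP and 21.6% in HCT8. The mean log2 ratio of mitochondrial to nuclear sums was 2.77, 3.55 and 3.56 in the same order of lines, 3.91, 4.74 and 4.85 from FPKM, and 6.05, 6.64 and 6.82 from medians. Leaving out each library gave shares of 3.18% to 3.66%, 4.97% to 5.58% and 5.73% to 6.87%.

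Among named genes, 34 values changed sign under an alternative, none of them for a gene called in that same comparison with all libraries. For HCT8/5-Fu against HCT8, CYC1 (0.046 with all libraries) was at -0.077 with library totals, -0.053 with upper-quartile factors, -0.080 to 0.34 with libraries left out. MT-ND6 (-0.16 with all libraries) was at -0.24 to 0.078 with libraries left out. NRF1 (-0.097 with all libraries) was at -0.21 to 0.077 with libraries left out. PPARGC1B (0.085 with all libraries) was at -0.026 with library totals, -0.0070 with upper-quartile factors, -0.031 to 0.31 with libraries left out. SDHD (-0.015 with all libraries) was at -0.12 to 0.055 with libraries left out. For HCT8/DDP against HCT8, MT-ATP8 (0.58 with all libraries) was at -0.67 to 0.95 with libraries left out. MT-CO1 (0.11 with all libraries) was at -0.099 to 0.24 with libraries left out. MT-ND1 (-0.086 with all libraries) was at -0.16 to 0.0068 with libraries left out. MT-ND2 (-0.12 with all libraries) was at -0.25 to 0.0042 with libraries left out. MT-ND6 (0.026 with all libraries) was at -0.097 with library totals, -0.056 with upper-quartile factors, -0.024 to 0.13 with libraries left out. For HCT8/DDP against HCT8/5-Fu, COX6B2 (-0.0095 with all libraries) was at 0.015 with library totals, 0.030 with upper-quartile factors, -0.77 to 0.73 with libraries left out. GABPA (0.023 with all libraries) was at -0.035 to 0.082 with libraries left out. PPARGC1A (-0.14 with all libraries) was at -0.43 to 0.35 with libraries left out. SDHC (-0.0082 with all libraries) was at 0.017 with upper-quartile factors, 0.0056 in the fit of 9 libraries, -0.037 to 0.0067 with libraries left out. UQCRHL (0.19 with all libraries) was at -0.14 to 0.52 with libraries left out. Of the other values of named genes under an alternative, 1949 kept their direction and side of the threshold, 194 no longer passed it and 66 newly passed it.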
